A study of Mus musculus with 6 samples.

Results

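Interferon-stimulated genes are the genes that cells switch on when an interferon, a cytokine released on infection or tissue damage, binds its receptor. Here 52 of them were chosen by symbol from a table of 32479 rows, and each of the 52 had a row. By textbook knowledge 35 were placed in a type I class and 17 in an interferon-gamma class, although many answer to both kinds of interferon. RNA came from primary cells labelled cardiac fibroblasts of C57BL/6J mice. Of the libraries, 3 came from mice that had received carbon tetrachloride (CCl4), a solvent that scars the liver, and 3 from controls. The sample titles number the libraries as replicates and do not say whether each came from a separate mouse. The main test treats the libraries as independent. The comparison asks how the heart differs in this model of liver cirrhosis. The CCl4 dose, route and duration, what the controls received, the isolation of the cells, and the mice's age and sex were not stated in the labels, and the liver was not measured in these data.

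Type I interferons bind the IFNAR receptor and act through a complex with STAT2 and IRF9 that binds a promoter element called ISRE. Interferon-gamma binds the IFNGR receptor and acts through a promoter element called GAS and through IRF1, which is itself induced. The induced proteins block virus replication, sense foreign nucleic acid, attack vacuoles that hold microbes and prepare peptides for display to T cells.

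Promoter sequence is shown first, because these elements are how the family is known to be switched on. RefSeq start sites (GRCm38.p6) gave windows of 250 upstream bases for 38 of the 52 genes, 47 windows in all. The ISRE core was searched as GAAANNGAAA and the GAS as TTCNNNGAA, both on both strands. An ISRE core stood in a window of 20 of the 38 genes (52.6%), against 3.45% of the 26994 genes with a window. A GAS stood in 11 of the 38 (28.9%), against 8.12% of those genes. By class, an ISRE core was found in 13 of 25 type I genes (52.0%) and 7 of 13 interferon-gamma genes (53.8%), and a GAS in 4 type I genes (16.0%) and 7 interferon-gamma genes (53.8%). Only in the Bst2 window did an ISRE match overlap a GAS match. A match is a run of letters and not a measured binding site.

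Windows are printed for Ifi205 and Ifit2, which were lower in CCl4 libraries, for Isg15, whose values were higher, and for the neighbours Igtp and Irgm2, which hold both elements. Each is written on its gene's strand, ends at the base before the start site, and has every match in capitals. Ifi205 (chr1:174031756-174032005, minus strand) holds 1 ISRE core. Ifit2 (chr19:34550444-34550693, plus strand) holds 1 GAS and no ISRE core, and the window of its other RefSeq start holds neither. Isg15 (chr4:156200819-156201068, minus strand) holds 3 overlapping ISRE cores. In Igtp (chr11:58199306-58199555, plus strand) the GAS starts at -45 and the ISRE core at -34 from the start site, and in Irgm2 (chr11:58214727-58214976, plus strand) they start at -75 and -64.
Ifi205: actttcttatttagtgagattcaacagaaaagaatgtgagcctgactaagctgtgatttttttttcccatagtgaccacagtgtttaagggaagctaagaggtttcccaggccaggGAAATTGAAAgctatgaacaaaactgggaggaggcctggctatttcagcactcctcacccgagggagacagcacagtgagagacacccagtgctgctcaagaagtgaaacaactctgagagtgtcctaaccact
Ifit2: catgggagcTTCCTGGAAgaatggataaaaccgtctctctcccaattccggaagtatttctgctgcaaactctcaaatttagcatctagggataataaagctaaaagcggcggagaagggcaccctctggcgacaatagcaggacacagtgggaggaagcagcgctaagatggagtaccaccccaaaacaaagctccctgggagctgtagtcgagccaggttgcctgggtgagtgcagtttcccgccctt
Isg15: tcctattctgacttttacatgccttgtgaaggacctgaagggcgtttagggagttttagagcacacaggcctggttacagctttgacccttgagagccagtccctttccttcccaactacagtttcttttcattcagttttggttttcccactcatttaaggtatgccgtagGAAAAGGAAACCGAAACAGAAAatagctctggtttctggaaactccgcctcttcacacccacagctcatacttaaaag
Igtp: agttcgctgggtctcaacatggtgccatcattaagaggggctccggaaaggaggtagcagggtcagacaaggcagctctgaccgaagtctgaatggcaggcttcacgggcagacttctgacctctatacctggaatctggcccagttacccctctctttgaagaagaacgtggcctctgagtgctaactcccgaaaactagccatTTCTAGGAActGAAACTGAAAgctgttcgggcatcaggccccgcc
Irgm2: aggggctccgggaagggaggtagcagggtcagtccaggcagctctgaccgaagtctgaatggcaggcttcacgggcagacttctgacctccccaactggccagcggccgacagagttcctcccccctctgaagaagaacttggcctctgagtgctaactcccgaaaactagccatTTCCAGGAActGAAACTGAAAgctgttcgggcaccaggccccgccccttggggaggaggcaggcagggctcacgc

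Values are FPKM, fragments scaled to transcript length and to the mapped total of the library. Fold changes are given on the log2(FPKM + 1) scale as the CCl4 mean minus the control mean, each with its standard error (SE). This scale understates the change of genes near or below 1 FPKM. Rows with a mean of at least 1 FPKM over the 6 libraries were tested with limma, and calls needed an adjusted p below 0.05. Fragment numbers are unknown. FPKM summed to 588660 to 602763 in CCl4 and 519609 to 542738 in control libraries, and mitochondrial rows made up 52.0 to 53.2% and 48.6 to 50.7% of that. Transcripts of heart muscle outweighed those of fibroblasts. The 8 cardiomyocyte markers summed to 11581 to 12829 FPKM in CCl4 and 9705 to 11573 FPKM in control libraries, and the 9 fibroblast markers to 510.2 to 516.4 FPKM in CCl4 and 436.5 to 697.4 FPKM in control libraries. The abundant Gsn and Dcn carry the fibroblast sum, and 4 of the 9 were called higher in CCl4, with log2 fold changes of 1.88 ± 0.17 (Col1a1), 1.59 ± 0.15 (Lum), 1.27 ± 0.12 (Col1a2) and 0.41 ± 0.092 (Ddr2). Among 8 cardiomyocyte markers Myl2 was called higher (0.27 ± 0.087), and among 8 endothelial markers Kdr (0.53 ± 0.093). Over all tested rows 9.64% were called higher. Myh6 was not called (0.78 ± 0.27, limma adjusted p = 0.0542). It was at 1994.38 FPKM in control replicate 1, against 914.28 and 1000.79 FPKM in control replicates 2 and 3. In such mixed RNA, fewer cells of a type and less RNA per cell cannot be told apart.

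Most interferon-stimulated genes did not pass the test between CCl4 and control. Of the 52, 43 were tested and 3 were called, all lower in CCl4, namely Gbp6, Ifi205 and Ifit2. Over all 10995 tested rows 31.8% were called, 22.2% lower and 9.64% higher, so the share called among these genes lay below the background. A call also depends on the spread within groups, which was larger in these genes, so this share does not measure the size of change. Without adjustment, 11 of the 43 had p under 0.05, and 4894 of all 10995 tested rows. Groups did not overlap in 8 of the 43, with CCl4 above control in 5 and below in 3, while 48.7% of all tested rows had no overlap. When libraries were rescaled by trimmed means (TMM), quantiles or median ratios, 3 genes were called higher, Ifi203, Isg15 and Oas1a. Over all rows 1526 of 10989 were called higher with TMM, 1722 of 10995 with quantiles and 1569 of 10969 with median ratios. With TPM 9 of the 43 genes were called lower, as Ifit1, Iigp1, Irf7, Irgm1, Oas2 and Rsad2 joined. Without CCl4 replicate 2 it was 7, with Ifit1, Iigp1, Irf7 and Irgm1. Over all rows 4241 of 11005 were called lower with TPM and 1895 of 10981 without CCl4 replicate 2. The median log2 fold change as deposited was -0.097 over the 43 genes and -0.087 over all tested rows.

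**Figure D1:**
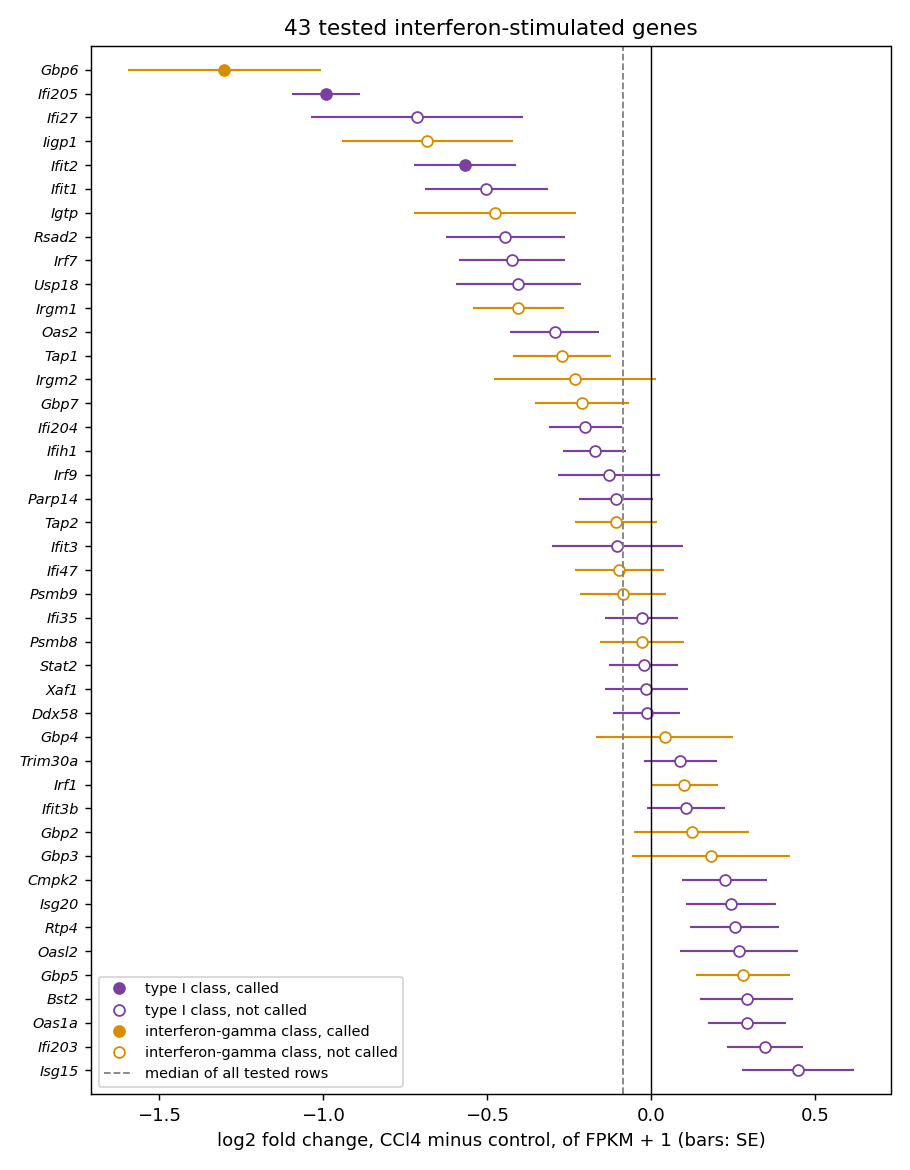
Log2 fold change of FPKM + 1, CCl4 minus control, of the 43 tested interferon-stimulated genes, with SE bars and colour for the inducer class. Filled points are the called genes Gbp6, Ifi205 and Ifit2, and values run from -1.30 for Gbp6 to 0.45 for Isg15 around the dashed median of all tested rows.

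Ifit2 and its relatives are IFIT proteins, which bind viral RNA or hinder its translation. Ifit2 had 3.64, 5.87 and 3.43 FPKM in CCl4 libraries, against 6.51, 6.74 and 6.90 FPKM in control libraries. Controls lay close together, every CCl4 library lay below them, and CCl4 replicate 2 came nearest. The log2 fold change was -0.57 ± 0.16 (SE, limma adjusted p = 0.0264). Its call did not hold when CCl4 replicate 1 was left out (adjusted p = 0.0904), CCl4 replicate 3 (0.0873), control replicate 2 (0.0658) or control replicate 3 (0.0592), with quantile scaling (0.0508) and with every row above 0 tested (0.0946). Ifit2 lies on chromosome 19 from 34550694 to 34576419 (GRCm38, GENCODE M21), and none of the 31-base words of its longest transcript recur in another gene.

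Its relatives lie beside it on chromosome 19. Ifit1 was at 1.32, 2.85 and 1.92 FPKM in CCl4 and 3.94, 2.61 and 3.15 FPKM in control libraries. CCl4 replicate 2 exceeded control replicate 2, so the groups overlapped (log2 fold change -0.50 ± 0.19, adjusted p = 0.0722). Without that CCl4 library Ifit1 was called lower (adjusted p = 0.0240). Ifit3 was at 5.74, 8.80 and 5.43 FPKM in CCl4 and 8.87, 5.30 and 7.46 FPKM in control libraries (log2 fold change -0.10 ± 0.20, adjusted p = 0.718). Its near copy Ifit3b averaged 2.59 ± 0.455 FPKM in CCl4 and 2.33 ± 0.366 FPKM in control libraries (SD, n = 3 each, limma adjusted p = 0.514). Ifit3 and Ifit3b share 61.8% and 55.2% of their words with other genes, mostly with each other, so reads could be split between them.

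Other antiviral effectors gave no call. Bst2, or tetherin, which holds budding virus on the cell surface, was at 15.81, 18.56 and 14.28 FPKM in CCl4 and 14.69, 10.40 and 14.34 FPKM in control libraries, with overlap (log2 fold change 0.29 ± 0.14, adjusted p = 0.152). Rsad2, or viperin, which makes a nucleotide that ends viral RNA chains, averaged 2.39 ± 0.622 FPKM in CCl4 and 3.65 ± 1.10 FPKM in control libraries (SD, n = 3 each, limma adjusted p = 0.0956). Cmpk2, a nucleotide kinase that lies next to Rsad2 on chromosome 12, averaged 2.18 ± 0.496 FPKM in CCl4 and 1.71 ± 0.294 FPKM in control libraries (adjusted p = 0.219). The neighbours differed in sign, and neither passed. Isg20, an exonuclease, was at 1.21, 2.07 and 1.21 FPKM in CCl4 and 1.12, 0.95 and 1.18 FPKM in control libraries, where all CCl4 values lay above all control values by a small margin (log2 fold change 0.24 ± 0.14, adjusted p = 0.204). The dynamin-like GTPases Mx1 and Mx2 stayed at 0.13 to 0.17 and 0.28 to 0.48 FPKM in CCl4 and at 0.14 to 0.15 and 0.28 to 0.71 FPKM in control libraries, and were not tested.

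The ISG15 system was split in direction. Isg15, a ubiquitin-like protein coupled to other proteins, was at 3.32, 4.69 and 3.34 FPKM in CCl4 and 3.00, 1.70 and 2.89 FPKM in control libraries. The groups did not overlap, but CCl4 replicates 1 and 3 lay close to control replicates 1 and 3 (log2 fold change 0.45 ± 0.17, adjusted p = 0.0777). It was called higher with TMM scaling (adjusted p = 0.0414), quantile scaling (0.0400), median-ratio scaling (0.0387) and library weights (0.0426). Usp18, the protease that removes ISG15 and damps the type I receptor, was at 1.60, 2.21 and 1.47 FPKM in CCl4 and 3.96, 2.13 and 2.08 FPKM in control libraries (log2 fold change -0.40 ± 0.19, adjusted p = 0.138). Control replicate 1 stood above the other 5 libraries, which overlapped.

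Oligoadenylate synthetases sense double-stranded RNA and activate RNase L. Oas1a was at 2.16, 2.33 and 2.02 FPKM in CCl4 and 1.81, 1.16 and 1.85 FPKM in control libraries, without overlap (log2 fold change 0.29 ± 0.12, adjusted p = 0.0926). Rescaled libraries gave a call, at adjusted p of 0.0444 (TMM), 0.0394 (quantile) and 0.0410 (median ratio). Since 68.8% of its words recur in other genes, chiefly Oas1g, its level is uncertain. Oas2 averaged 2.93 ± 0.515 FPKM in CCl4 and 3.84 ± 0.774 FPKM in control libraries (SD, n = 3 each, limma adjusted p = 0.132), and Oasl2 averaged 1.93 ± 0.478 FPKM in CCl4 and 1.46 ± 0.527 FPKM in control libraries (adjusted p = 0.283). Oas1g, Oas3 and Oasl1 were not tested, at 0.03 to 0.63 FPKM in CCl4 and 0.02 to 0.66 FPKM in control libraries.

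Among sensors of nucleic acid, Ifi205 was called. It belongs to the p200 family, nuclear proteins of which several bind DNA. Its level was 2.83, 3.27 and 2.54 FPKM in CCl4 libraries, against 6.38, 7.60 and 6.15 FPKM in control libraries. The groups lay well apart, with means of 2.88 ± 0.368 FPKM in CCl4 and 6.71 ± 0.779 FPKM in control libraries (SD, n = 3 each). The log2 fold change was -0.99 ± 0.10 (SE, limma adjusted p = 0.000502), and the call was kept in each of the 19 alternatives that tested it. Ifi205 lies on chromosome 1 from 174011998 to 174031810, and 56.5% of its words recur in other genes, nearly all in Ifi211.

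Its relatives on chromosome 1 did not all follow it. Ifi211, no member of the 52, was called lower, at 4.09, 4.08 and 4.64 FPKM in CCl4 and 5.90, 5.88 and 6.50 FPKM in control libraries (log2 fold change -0.43 ± 0.079, adjusted p = 0.00576). Of its words 78.9% recur in other genes, 49.5% in Ifi205, so the rows of Ifi205 and Ifi211 may count some of the same reads. Ifi207, likewise no member, was also called lower, at 3.07, 3.96 and 3.34 FPKM in CCl4 and 5.78, 7.45 and 8.96 FPKM in control libraries (log2 fold change -0.90 ± 0.14, adjusted p = 0.00302). Ifi203 lay the other way, at 4.49, 6.47 and 5.21 FPKM in CCl4 and 4.04, 3.69 and 4.23 FPKM in control libraries, without overlap (log2 fold change 0.35 ± 0.12, adjusted p = 0.0519). Rescaled libraries gave a call, at adjusted p of 0.0167 (TMM), 0.0165 (quantile) and 0.0153 (median ratio). So did robust variances (0.0461), library weights (0.0217) and the fit without CCl4 replicate 1 (0.0259). Ifi204 averaged 2.04 ± 0.347 FPKM in CCl4 and 2.49 ± 0.348 FPKM in control libraries (SD, n = 3 each, limma adjusted p = 0.201), with 46.0% of its words found elsewhere.

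The cytosolic RNA helicases were not called. Ddx58, which encodes RIG-I, averaged 2.15 ± 0.351 FPKM in CCl4 and 2.17 ± 0.199 FPKM in control libraries (SD, n = 3 each), a log2 fold change of -0.013 ± 0.10 (limma adjusted p = 0.931). Ifih1, a sensor of long double-stranded RNA, averaged 1.38 ± 0.155 FPKM in CCl4 and 1.68 ± 0.221 FPKM in control libraries (adjusted p = 0.197). Dhx58, their regulator, and Zbp1, a sensor of left-handed nucleic acid, were not tested, at 0.41 to 0.84 FPKM in CCl4 and 0.24 to 0.66 FPKM in control libraries.

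Guanylate-binding proteins (GBPs) are interferon-gamma-induced GTPases that coat vacuoles holding microbes, and Gbp6 showed the largest log2 fold change of the 43 genes. It had 3.40, 6.64 and 4.09 FPKM in CCl4 libraries, against 20.76, 9.70 and 9.98 FPKM in control libraries. Every CCl4 library lay below every control library, and control replicate 1 exceeded the sum of the other controls. The log2 fold change was -1.30 ± 0.29 (SE, limma adjusted p = 0.0127). It was not called without CCl4 replicate 1 (-1.13, adjusted p = 0.0542) or with every row above 0 tested (adjusted p = 0.0618). Gbp6 lies on chromosome 5 from 105270702 to 105293698.

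Reads of Gbp6 are hard to tell from those of its neighbours. The words of its longest transcript recur in other genes at 94.4%, most of them in the predicted gene Gm43302. Gm43302 was at 2.04, 3.06 and 1.26 FPKM in CCl4 and 7.99, 4.61 and 4.51 FPKM in control libraries (log2 fold change -1.11 ± 0.24, adjusted p = 0.0115). Gbp10, with 88.8% shared words, was at 0.60, 1.49 and 1.14 FPKM in CCl4 and 6.74, 2.60 and 2.46 FPKM in control libraries (log2 fold change -1.17 ± 0.30, adjusted p = 0.0216). All of these rows were lower in CCl4, and they may count reads of the same transcripts.

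The other GBPs were not called. Gbp2 was at 8.13, 11.94 and 7.24 FPKM in CCl4 and 9.07, 6.65 and 8.77 FPKM in control libraries (log2 fold change 0.12 ± 0.18, adjusted p = 0.616). Gbp5, which helps to assemble the inflammasome, was at 1.19, 2.27 and 1.37 FPKM in CCl4 and 1.13, 1.15 and 1.07 FPKM in control libraries, without overlap (log2 fold change 0.28 ± 0.14, adjusted p = 0.170). Gbp3, Gbp4 and Gbp7 differed by 0.18 ± 0.24, 0.042 ± 0.21 and -0.21 ± 0.14 on the log2 scale, at adjusted p of 0.585, 0.894 and 0.288. The GBPs of chromosome 3, Gbp2, Gbp3, Gbp5 and Gbp7, had log2 fold changes on both sides of 0 under each scaling tried, although Gbp2 was below 0 with TPM (-0.015).

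IRG proteins, a second family of vacuole-attacking GTPases, all had log2 fold changes below 0 under each scaling tried, and none was called on the deposited scale. On that scale 6880 of all 10995 tested rows also lay below 0. Irgm2 alone changed sign when a library was left out (0.020 without control replicate 1). Igtp was at 11.33, 16.66 and 9.23 FPKM in CCl4 and 23.89, 12.74 and 16.50 FPKM in control libraries (log2 fold change -0.48 ± 0.25, adjusted p = 0.172). Iigp1 was at 8.83, 13.26 and 7.34 FPKM in CCl4 and 23.25, 11.43 and 15.00 FPKM in control libraries (log2 fold change -0.68 ± 0.26, adjusted p = 0.0795). In both, CCl4 replicate 2 exceeded control replicate 2 and control replicate 1 was the highest library. Irgm2 was at 9.03, 14.58 and 9.65 FPKM in CCl4 and 18.77, 9.23 and 12.35 FPKM in control libraries (log2 fold change -0.23 ± 0.25, adjusted p = 0.498). Irgm1, a regulator of the others, was at 3.77, 5.05 and 3.56 FPKM in CCl4 and 6.78, 4.85 and 5.70 FPKM in control libraries (log2 fold change -0.40 ± 0.14, adjusted p = 0.0554). Ifi47 averaged 1.76 ± 0.427 FPKM in CCl4 and 1.95 ± 0.380 FPKM in control libraries (SD, n = 3 each, limma adjusted p = 0.608). Without CCl4 replicate 2, Irgm1 and Iigp1 were called lower (adjusted p = 0.0282 and 0.0450). Igtp and Irgm2 overlap on chromosome 11 and share words, so their reads may be split.

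**Figure D2:**
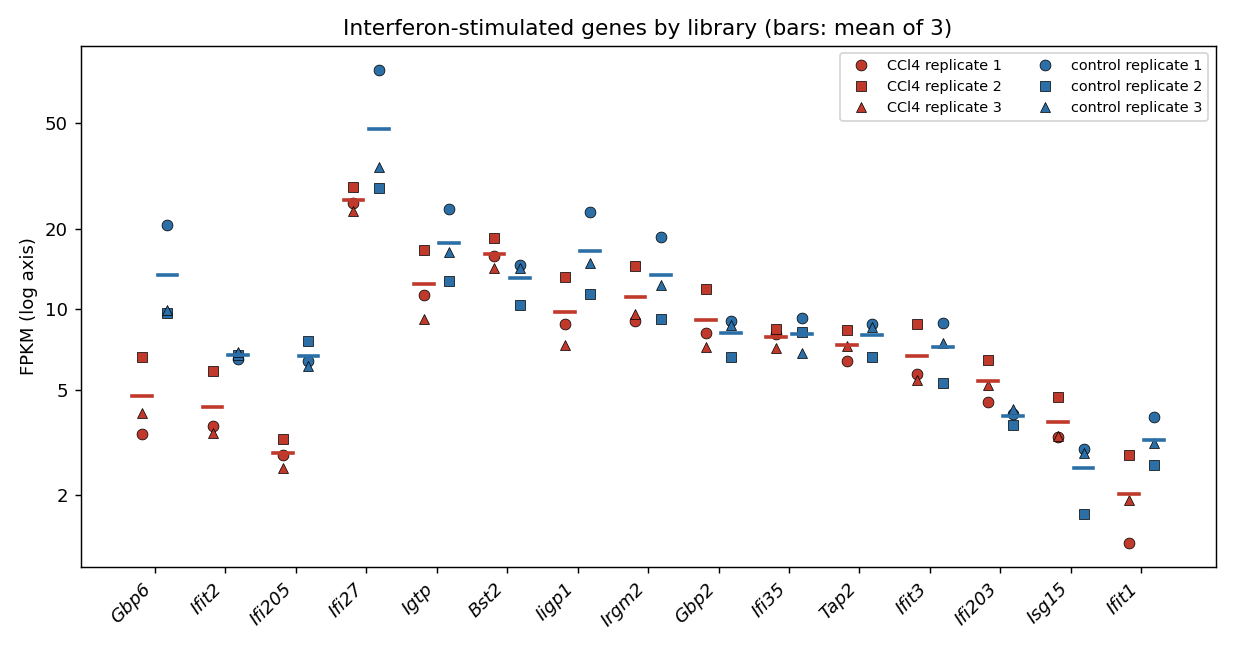
FPKM on a log axis of 15 interferon-stimulated genes in each library, CCl4 left of control, with a marker shape for the replicate and a bar for the mean of 3. Gbp6, Ifi205, Ifit2, Ifi203 and Isg15 show no overlap between groups, and the square of CCl4 replicate 2 is the highest CCl4 point in each gene.

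Transcription factors were not called. Irf7, which amplifies type I interferon production, was at 2.85, 4.27 and 3.21 FPKM in CCl4 and 6.28, 3.98 and 4.69 FPKM in control libraries (log2 fold change -0.42 ± 0.16, adjusted p = 0.0762). CCl4 replicate 2 lay above control replicate 2, and without that CCl4 library Irf7 was called lower (adjusted p = 0.0467). Irf1, a mediator of interferon-gamma, averaged 6.07 ± 0.577 FPKM in CCl4 and 5.60 ± 0.692 FPKM in control libraries (SD, n = 3 each, limma adjusted p = 0.468). Of the ISRE-binding complex, Stat2 averaged 3.45 ± 0.527 FPKM in CCl4 and 3.51 ± 0.348 FPKM in control libraries (adjusted p = 0.883). Irf9 averaged 4.02 ± 0.798 FPKM in CCl4 and 4.51 ± 1.07 FPKM in control libraries (adjusted p = 0.553). Irf8, a factor of myeloid cells, was not tested, at 0.74 to 0.85 FPKM in CCl4 and 0.70 to 0.97 FPKM in control libraries.

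Genes that prepare peptides for MHC class I had log2 fold changes between -0.27 and -0.028, none called, and Psmb8 was above 0 with TMM (0.041), quantile (0.059) and median-ratio scaling (0.048). The immunoproteasome subunit Psmb8 averaged 3.87 ± 0.821 FPKM in CCl4 and 3.93 ± 0.508 FPKM in control libraries (SD, n = 3 each, limma adjusted p = 0.885). Psmb9 averaged 2.06 ± 0.435 FPKM in CCl4 and 2.24 ± 0.383 FPKM in control libraries (adjusted p = 0.643). Of the peptide transporter chains, Tap2 was at 6.39, 8.34 and 7.29 FPKM in CCl4 and 8.82, 6.60 and 8.56 FPKM in control libraries (log2 fold change -0.11 ± 0.13, adjusted p = 0.542), and Tap1 averaged 2.99 ± 0.704 FPKM in CCl4 and 3.80 ± 0.711 FPKM in control libraries (adjusted p = 0.197). They adjoin each other on chromosome 17, where the ends of Psmb9 and Tap1 overlap on opposite strands. Whether counting used strand is not given in the sources used here.

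Of the remaining genes, Ifi27, which encodes a small mitochondrial membrane protein, was the most abundant of the 52. It was at 25.17, 28.93 and 23.53 FPKM in CCl4 and 79.60, 28.69 and 34.42 FPKM in control libraries. Control replicate 1 stood far above the other 5 libraries, which overlapped (log2 fold change -0.71 ± 0.32, adjusted p = 0.124). Without control replicate 1 the log2 fold change was -0.28 (adjusted p = 0.109). Ifi35 was at 8.09, 8.45 and 7.15 FPKM in CCl4 and 9.26, 8.21 and 6.87 FPKM in control libraries (log2 fold change -0.029 ± 0.11, adjusted p = 0.858). Parp14, Rtp4, Trim30a and Xaf1 had adjusted p of 0.496, 0.181, 0.562 and 0.939, with levels of 1.48 to 3.96 FPKM in CCl4 and 1.65 to 4.12 FPKM in control libraries. Ifi44 was not tested, at 0.44 to 0.66 FPKM in CCl4 and 0.30 to 0.45 FPKM in control libraries.

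The type I and interferon-gamma classes are set side by side as a description. Of 27 tested type I genes 2 were called lower, and the median log2 fold change was -0.029. Of 16 tested interferon-gamma genes 1 was called lower, and the median was -0.10. No gene of either class was called higher on the deposited scale. Over all tested rows 22.2% were called lower and 9.64% higher, with a median of -0.087. The share called in each class thus lay below the background. That share depends on the spread within groups too, and does not measure the size of change. FPKM over the 35 type I genes summed to 112.9, 146.7 and 112.4 FPKM in CCl4 and 195.8, 119.5 and 137.3 FPKM in control libraries, replicates 1 to 3. Over the 17 interferon-gamma genes it summed to 78.86, 115.6 and 74.5 FPKM in CCl4 and 146.2, 87.17 and 109.5 FPKM in control libraries. In both classes CCl4 replicate 2 had the highest sum of its group and lay above control replicate 2, and control replicate 1 had the highest sum of all. Whether the classes differ was not tested.

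Libraries of the same group stood further apart in these genes than in the median tested row. CCl4 replicate 2 was the highest CCl4 library in 43 of the 43 tested genes, against 42.2% of all tested rows. It lay above the mean of the other 2 CCl4 libraries by a median of 0.36 log2 units, against 0.046 over all tested rows. The median was 0.31 in the type I class and 0.48 in the interferon-gamma class. Among controls, replicate 1 was highest in 27 of the 43 (62.8%, against 42.7% of all tested rows), and replicate 2 was lowest in 33 (76.7%, against 42.0%). The median SD of log2(FPKM + 1) within a group was 0.221 in CCl4 and 0.203 in control libraries over the 43 genes, and 0.0999 and 0.106 over all tested rows. With CCl4 replicate 2 and control replicate 1 both left out, a setting chosen after seeing the data, 6 of the 43 were called lower and 0 higher, as Ifit1, Iigp1 and Irgm1 joined the 3. Over all rows in that setting 1691 of 10986 were called lower, a similar share, and 806 higher.

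**Figure D3:**
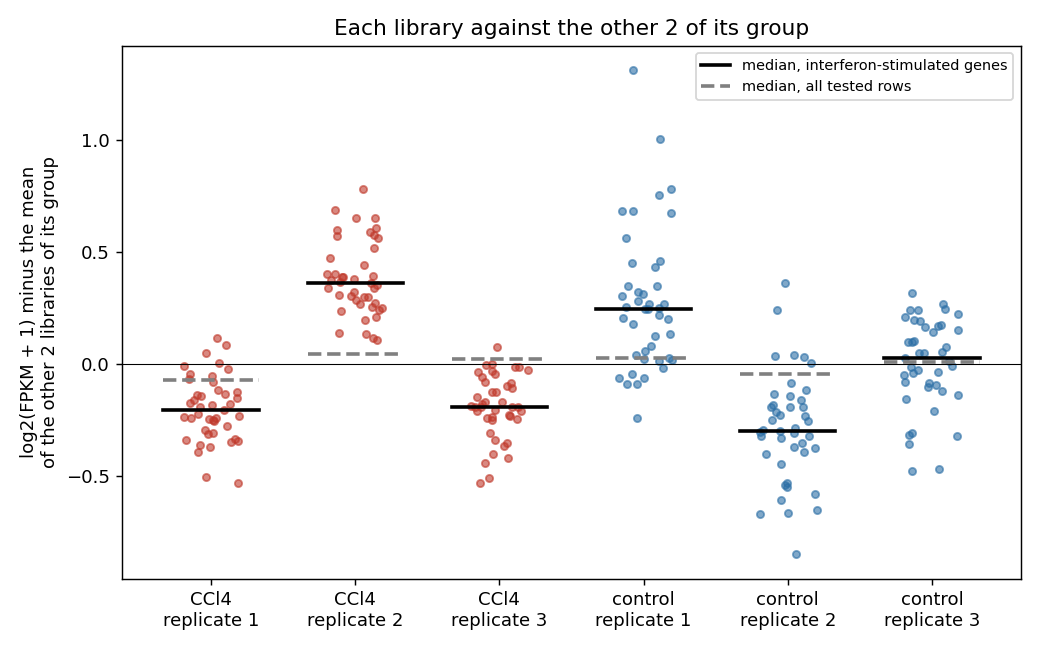
Each point is 1 of the 43 tested interferon-stimulated genes, as log2(FPKM + 1) in a library minus the mean of the other 2 libraries of its group. All points of CCl4 replicate 2 lie above 0 with a median of 0.36, control replicate 1 has a median of 0.25, and the dashed medians of all tested rows lie between -0.070 and 0.046.

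Leukocyte markers also differed between libraries of a group. The 5 neutrophil markers summed to 2.51, 6.17 and 4.93 FPKM in CCl4 and 24.05, 2.51 and 3.35 FPKM in control libraries, with control replicate 1 far above the rest, and S100a9 was at 1.58, 4.07 and 1.80 FPKM in CCl4 and 15.77, 1.56 and 1.80 FPKM in control libraries. The 10 T and NK cell markers summed to 1.42, 2.02 and 0.99 FPKM in CCl4 and 4.17, 2.38 and 3.05 FPKM in control libraries. The 6 markers of B and plasmacytoid dendritic cells summed to 0.51, 1.73 and 1.2 FPKM in CCl4 and 1.53, 0.57 and 0.65 FPKM in control libraries. In these lists the sums of CCl4 replicate 2 and control replicate 1 were the highest of their groups, but single markers differed. Like S100a9, Csf3r was highest in CCl4 replicate 2 among CCl4 libraries. S100a8 (0.36, 0.73 and 1.35 FPKM) and Retnlg (0.19, 0.61 and 1.06 FPKM) were highest in CCl4 replicate 3. Trbc2 was at 0.16, 0.78 and 0.16 FPKM in CCl4 libraries, and other T and NK cell markers peaked in different CCl4 libraries. The 5 dendritic cell markers summed to 1.52, 1.43 and 1.35 FPKM in CCl4 and 2.42, 1.7 and 1.72 FPKM in control libraries, where CCl4 replicate 1 and control replicate 1 were the highest, and Clec9a was called lower (-0.44 ± 0.13). The 14 macrophage markers summed to 94.79, 104.2 and 97.44 FPKM in CCl4 and 104.8, 95.16 and 117.9 FPKM in control libraries, and there CCl4 replicate 2 and control replicate 3 were the highest. C1qa, C1qb and C1qc carry that sum. Of 10 tested macrophage markers Cd163 was called lower, at 2.13, 2.62 and 3.44 FPKM in CCl4 and 7.03, 5.53 and 6.24 FPKM in control libraries (log2 fold change -0.97 ± 0.14, adjusted p = 0.00175). Lyve1 was called lower, at 3.02, 4.37 and 4.10 FPKM in CCl4 and 5.62, 8.68 and 8.60 FPKM in control libraries (log2 fold change -0.83 ± 0.17, adjusted p = 0.00828). Cd68 was called higher, at 6.11, 5.89 and 5.98 FPKM in CCl4 and 3.72, 3.56 and 4.90 FPKM in control libraries (log2 fold change 0.48 ± 0.10, adjusted p = 0.0113). With 1 called higher and 2 lower of 10, the share called lay near the 31.8% of all tested rows. Groups did not overlap in 4 of the 10 tested macrophage markers, against 48.7% of all tested rows. CCl4 lay below control in Cd163, Lyve1 and the uncalled Mrc1, and above it in Cd68. The untested Ccr2 and Cx3cr1, below 1 FPKM in every library, did not overlap either, with CCl4 above control. The part of these cells in the interferon-stimulated genes was not tested.

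Of 14 listed interferon genes 5 had a row, and their levels were at or near 0. Ifnb1, Ifna11 and Ifne were listed at 0 in every library, Ifnab reached 0.04 FPKM in 1 control library, and Ifng reached 0.02 FPKM in 1 library of each group. Of 5 tested receptor chains 1 was called, where 31.8% of all tested rows were. Ifngr2, a chain of the interferon-gamma receptor, was higher, at 27.83, 30.56 and 30.10 FPKM in CCl4 and 26.36, 16.86 and 19.15 FPKM in control libraries (log2 fold change 0.51 ± 0.15, adjusted p = 0.0318). Its partner Ifngr1 was at 13.45, 16.06 and 14.04 FPKM in CCl4 and 18.62, 14.69 and 19.13 FPKM in control libraries, with overlap (log2 fold change -0.25 ± 0.11, adjusted p = 0.134). Il10rb, which serves the lambda interferons, was at 27.67, 29.97 and 31.29 FPKM in CCl4 and 36.31, 31.32 and 31.35 FPKM in control libraries (log2 fold change -0.15 ± 0.089, adjusted p = 0.231). The type I receptor chains Ifnar1 and Ifnar2 differed by -0.055 ± 0.093 and 0.11 ± 0.082 on the log2 scale, at adjusted p of 0.678 and 0.329.

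Signal transducers were mostly not called. Of 8 tested JAK, STAT and IRF genes 1 was called lower, against 22.2% of all tested rows. This was Irf3, which starts interferon transcription, at 6.40, 5.68 and 5.59 FPKM in CCl4 and 7.65, 7.25 and 7.72 FPKM in control libraries (log2 fold change -0.31 ± 0.077, adjusted p = 0.0177). Jak1 and Stat3 differed by -0.34 ± 0.12 and -0.031 ± 0.11 on the log2 scale, at adjusted p of 0.0660 and 0.842.

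Negative regulators held 3 calls among 8 tested genes, all lower in CCl4. Over all tested rows 22.2% were called lower and 31.8% in either direction. Ptpn11, a phosphatase, was at 17.25, 21.84 and 19.68 FPKM in CCl4 and 35.47, 34.00 and 28.54 FPKM in control libraries (log2 fold change -0.71 ± 0.11, adjusted p = 0.00312). Pias1, a SUMO ligase, was at 2.93, 3.33 and 2.85 FPKM in CCl4 and 4.80, 4.30 and 4.13 FPKM in control libraries (log2 fold change -0.42 ± 0.084, adjusted p = 0.00764). Socs3, a cytokine-induced inhibitor of JAK kinases, was at 0.94, 0.96 and 1.01 FPKM in CCl4 and 1.88, 1.66 and 2.85 FPKM in control libraries (log2 fold change -0.65 ± 0.14, adjusted p = 0.00899). In all of them the groups did not overlap. The abundant Cish and Pias4 had adjusted p of 0.372 and 0.328.

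Among 9 tested genes of sensing and induction, 2 were called lower and 1 higher, a share near the 31.8% of all tested rows called in either direction. Myd88, the adaptor of Toll-like receptors, was lower, at 4.06, 3.84 and 4.13 FPKM in CCl4 and 5.55, 5.29 and 6.26 FPKM in control libraries (log2 fold change -0.42 ± 0.080, adjusted p = 0.00678). Trim25, a ubiquitin ligase of RIG-I, was lower, at 4.38, 5.42 and 4.87 FPKM in CCl4 and 7.76, 7.07 and 6.23 FPKM in control libraries (log2 fold change -0.44 ± 0.10, adjusted p = 0.0124). Traf3, an adaptor upstream of IRF3, was higher, at 2.27, 2.20 and 1.96 FPKM in CCl4 and 1.54, 1.62 and 1.67 FPKM in control libraries (log2 fold change 0.27 ± 0.078, adjusted p = 0.0332). Mavs, the mitochondrial adaptor of RIG-I and the most abundant of them, had an adjusted p of 0.383.

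A further 74 interferon-induced genes were listed, and of 48 tested 6 were called higher and 5 lower, with a median log2 fold change of 0.0036. Over all tested rows 9.64% were higher and 22.2% lower, with a median of -0.087. The share called lower in this list lay below the background, and the share called higher slightly above it. In either direction together the share lay below the 31.8% of all tested rows. Ifi27l2a, a relative of Ifi27, was higher, at 15.78, 15.55 and 13.29 FPKM in CCl4 and 8.41, 4.48 and 7.36 FPKM in control libraries (log2 fold change 1.07 ± 0.19, adjusted p = 0.00456). Ube2l6, the enzyme that passes ISG15 to its targets, was higher, at 6.13, 7.95 and 7.82 FPKM in CCl4 and 6.08, 2.77 and 3.49 FPKM in control libraries (log2 fold change 0.74 ± 0.21, adjusted p = 0.0313). Also called higher were the galectin Lgals9 (log2 fold change 0.47 ± 0.11), the necroptosis effector Mlkl (0.40 ± 0.088), the proteasome activator Psme1 (0.35 ± 0.11) and the nuclear body protein Sp100 (0.25 ± 0.080). Ifitm1, which hinders virus entry, was lower, at 2.22, 1.88 and 1.91 FPKM in CCl4 and 3.32, 3.35 and 3.76 FPKM in control libraries (log2 fold change -0.58 ± 0.083, adjusted p = 0.00197). Its abundant relatives Ifitm2 and Ifitm3 were not called (adjusted p = 0.325 and 0.0508). Daxx, a nuclear body protein, was lower (-0.33 ± 0.081), as were Gbp10, Ifi207 and Ifi211. CCl4 replicate 2 was the highest CCl4 library in 39 of these 48 genes.

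**Figure D4:**
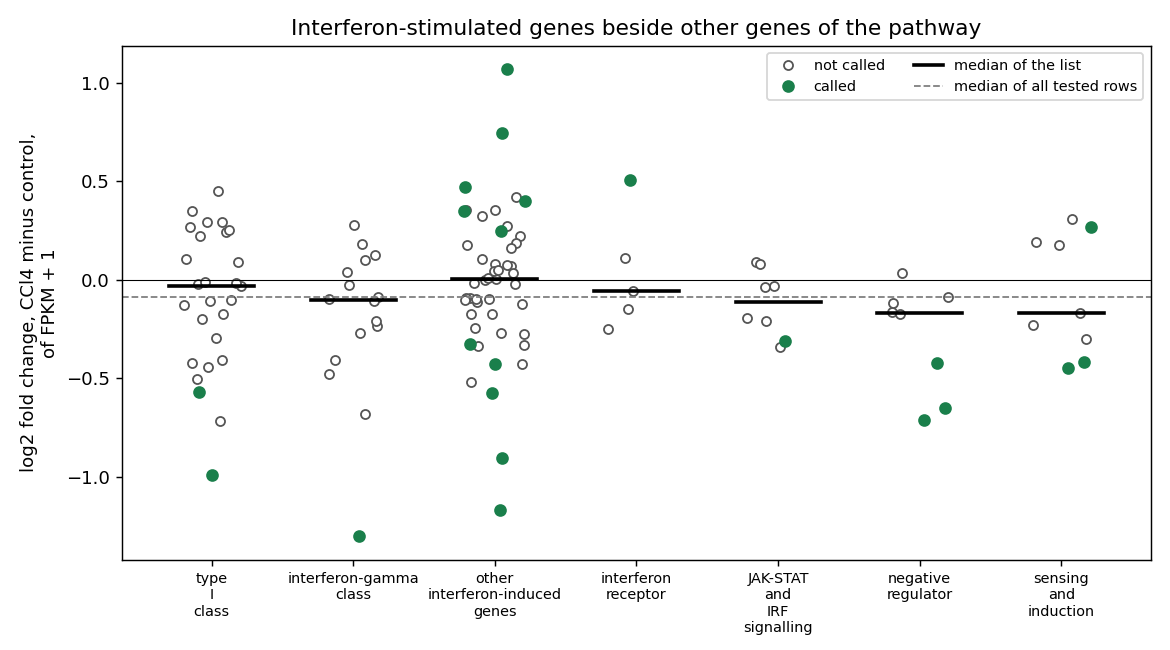
Log2 fold change of FPKM + 1, CCl4 minus control, of the tested genes of each list, with called genes filled and the list median as a black bar. Called genes lie on both sides of 0 among the other interferon-induced genes, 6 higher and 5 lower, while those of the type I and interferon-gamma classes all lie below 0.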

How the data were processed

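Gene levels were taken from the authors' deposited table of FPKM values, which the files label as FPKM, with a column for each of the 6 libraries. Per the labels' protocols, poly(A) RNA was made into strand-marked libraries. Per the submitters' processing notes, StringTie 2.1.6 and GRCm38 were used. The annotation release and strand setting are not stated there. Of low FPKM values of single-exon genes, scaled by length, 23.3 to 38.9% fell within 0.1 of a whole multiple, highest in CCl4 replicates 1 and 3, where an even spread gives 20%. Reads were not recovered from them, so depth is unknown.

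Rows with a mean of at least 1 FPKM were tested as log2(FPKM + 1), CCl4 against control, with limma 3.58.1 (R 4.3.3), trended variances, two-sided, with Benjamini-Hochberg adjustment over all 10995 tested rows. The procedure was tested on simulated data with independent noise in each gene and library. That simulation held no genes that rise and fall together by library, as the members did in CCl4 replicate 2. Same-numbered libraries of both groups did not deviate together, so no block was used. Alternatives changed the scaling, filter, pseudocount, variance model or libraries.

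The members and lists were chosen with earlier results of these data known. All members are accounted for: called genes and the 10 most abundant with every library, the rest by means, p or range. For the other pathway lists, called genes and the 3 most abundant are named, except that a gene of these lists is not reported here. For cell type markers, sums and called genes are given. Some genes are given more values than this rule asks, chosen after their values were seen. Shared 31-base words were counted in GENCODE M21 transcripts, and promoters came from RefSeq.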

Additional observations from a re-analysis of the deposited data

How the results depend on the processing

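No called member reversed in any alternative, and single genes outside the members were not followed. Calls over all genes, 3501 in the main result, numbered 2165 when only rows with a mean of at least 5 FPKM were tested, and 2180 (without CCl4 replicate 3) to 3260 (without control replicate 1) with a library left out. The main split of 1060 higher and 2441 lower became 615 and 4241 with TPM, 1526 and 1706 with TMM, 1722 and 1641 with quantile scaling, and 1569 and 1631 with median-ratio scaling, and the median log2 fold change of all genes, -0.087, became -0.21, -0.020, -0.0057 and -0.013 in that order. With mitochondrial rows removed it was -0.14. Members called higher, 0 in the main result, numbered 3 with TMM, quantile or median-ratio scaling (Ifi203, Isg15 and Oas1a), 2 with library weights (Ifi203 and Isg15), 1 with robust variances (Ifi203), and 0 to 1 with a library left out. Members called lower, 3 in the main result, numbered 9 with TPM, 6 with mitochondrial rows removed, 1 with no filter, 6 without both CCl4 replicate 2 and control replicate 1, and 1 (without CCl4 replicate 1) to 7 (without CCl4 replicate 2) with a library left out. Without control replicate 2 it was 5. Over all rows 3124 of 10963 were called lower with mitochondrial rows removed and 1691 of 10986 without both libraries. It was 1895 of 10981 without CCl4 replicate 2 and 1685 of 11003 without control replicate 2. With no filter 1796 of 27449 rows were called lower, and without CCl4 replicate 1 it was 1777 of 11016. Rows called higher numbered 1441 of 10995 with library weights, 1078 of 10995 with robust variances and 880 of 11016 without CCl4 replicate 1. The median over members was -0.21 without CCl4 replicate 2 and 0.020 without control replicate 1, where 8 uncalled members changed sign. With the replicate number as a block 2651 genes were called, and among members 0 were higher and 3 lower. Same-numbered libraries correlated at -0.064, 0.046 and -0.038 in their deviations from the group mean, so no shared deviation was seen. With 3 libraries in a group this cannot show whether they were handled as pairs. Unknown depth limits what can be said of members under 1 FPKM.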
